A study of Sus scrofa with 5 samples.

Results

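The genes described here are 10 genes of glucose uptake and glycolysis, chosen by name: the glucose transporters SLC2A1 and SLC2A3, the hexokinases HK1 and HK2, the phosphofructokinase PFKP, the aldolase ALDOA, the pyruvate kinase PKM, the lactate dehydrogenase subunits LDHA and LDHB, and the pyruvate dehydrogenase kinase PDK1. They are 10 of the 29886 gene symbols measured in porcine embryonic stem cells (pESCs) and 10 of the 30029 genes counted in porcine blastoids. The rule names them and uses no measured value, although they were picked with earlier results of these data known, and all 10 passed the filter on low counts in the blastoids. The pESCs were grown in 4FIXY medium on mouse embryonic fibroblast feeder cells at 5% oxygen and were profiled by bulk RNA-seq in 3 libraries, called IVFP25, PAP25 and PA_4P7 in the deposited columns, which number no replicates. The methods give parthenogenetic blastocysts as the origin of the pESCs, while 1 column name begins with IVF. The names also end in P25 or P7, which the methods do not explain. The spread between these libraries may thus hold more than differences between replicates. The blastoids, blastocyst-like structures grown from pESCs in iBlastoid medium at 20% oxygen, were taken on day 6, picked by hand for a visible cavity and an inner compartment, and profiled as single cells in 2 libraries. The sample titles give each kind of sample as a single group, so the genes were compared among themselves in the pESCs and between groups of cells in the blastoids.

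Glycolysis splits glucose into a pair of pyruvate molecules. Glucose enters the cell through transporters of the SLC2A family, is trapped by a hexokinase, is committed by phosphofructokinase, is cut by aldolase, and yields pyruvate at pyruvate kinase. Lactate dehydrogenase turns pyruvate into lactate and back, and pyruvate dehydrogenase kinase holds back the oxidation of pyruvate in the mitochondria by switching off pyruvate dehydrogenase. Pluripotent cells are known for a high use of glycolysis, and trophoblast is known for its glucose transport.

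In the RefSeq annotation of Sscrofa11.1 the transporters lie apart, SLC2A1 at chr6:168535398-168561170 (plus) and SLC2A3 at chr5:62963635-63041955 (minus), where plus and minus give the strand. The hexokinases are HK1 at chr14:72383328-72460927 (plus) and HK2 at chr3:68155656-68231187 (minus). The enzymes below them in the pathway are PFKP at chr10:67022652-67082336 (minus), ALDOA at chr3:18246036-18260167 (plus) and PKM at chr7:60971807-61032780 (plus). The genes that handle pyruvate are LDHA at chr2:40814163-40827284 (minus), LDHB at chr5:51810932-51831218 (plus) and PDK1 at chr15:78608394-78650958 (plus).

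PKM carries a pair of alternative exons of the same length, and a transcript keeps one or the other. The first gives the M1 form, known from muscle and brain, and the second the M2 form, known from embryonic and dividing cells. Both lie on the plus strand of chromosome 7 of the pig genome (Sscrofa11.1, RefSeq), the first at chr7:61028764-61028930 and the second at chr7:61029321-61029487. Each is 167 bases long, and 66 bases differ between them (60.5% identity). They are shown because the pESC values of PKM can be split by them, with capitals at the bases where the exons differ.
PKM first alternative exon: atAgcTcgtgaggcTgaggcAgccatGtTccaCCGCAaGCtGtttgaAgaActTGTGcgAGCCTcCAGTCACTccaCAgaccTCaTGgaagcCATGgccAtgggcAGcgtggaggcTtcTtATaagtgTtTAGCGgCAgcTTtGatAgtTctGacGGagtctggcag
PKM second alternative exon: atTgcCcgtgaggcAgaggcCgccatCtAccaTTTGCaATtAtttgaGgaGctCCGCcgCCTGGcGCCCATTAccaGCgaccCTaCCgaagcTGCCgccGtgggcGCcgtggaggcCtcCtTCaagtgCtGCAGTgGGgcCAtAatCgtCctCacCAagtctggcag

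In the pESCs the second of these exons dominated. FPKM, the fragments mapped to a transcript scaled by its length and by the library's total, of the annotated PKM transcripts with the second exon summed to 576 in IVFP25, 647 in PA_4P7 and 574 in PAP25. Those with the first exon summed to 121, 73.9 and 91.3 FPKM. The second exon thus held 82.1%, 88.6% and 85.4% of all PKM signal in the 3 libraries, a mean of 85.4% ± 3.27 (SD, n = 3), and the first exon 13.6% ± 3.54 (SD, n = 3). The second exon was the larger in every library, and the shares of the exons did not overlap. The other 9 of the 22 PKM models hold neither exon, end at position 60999860 of chromosome 7, upstream of the first pyruvate kinase exon at 61006974, and held 1.01% of the signal on average. The UMI counts of the blastoids come from transcript ends and do not tell the exons apart.

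Per length, the 10 genes spanned from 5.24 to 918 FPKM in the pESCs. The lactate dehydrogenase subunit LDHB, the form of heart and other oxidative tissue, stood highest, at 818 FPKM (IVFP25), 918 (PA_4P7) and 737 (PAP25). PKM followed with 701, 730 and 673 FPKM, and ALDOA, the aldolase of muscle and of most embryonic tissue, with 262, 262 and 250. These genes ranked among the first 228 genes in every library.
SLC2A3, the high-affinity glucose transporter of neurons and trophoblast, stood at 131, 131 and 133 FPKM. The hexokinase HK1, the housekeeping form, stood at 88.6, 89.2 and 73.5 FPKM. SLC2A1, the widespread basal glucose transporter, stood at 61.7, 52.8 and 82.3 FPKM, so SLC2A3 was above SLC2A1 in all 3 libraries. LDHA, the lactate dehydrogenase subunit of muscle and of glycolytic cells, stood at 29.5, 59.5 and 43.5 FPKM. It was the least steady of the 10, 2.01 times as high in PA_4P7 as in IVFP25.
PDK1 stood at 12.5, 18.2 and 14.8 FPKM, PFKP, the platelet-type phosphofructokinase, at 10.5, 12.1 and 8.30, and HK2, the insulin-responsive hexokinase, at 5.24, 9.04 and 8.88. The ranges of HK1 and SLC2A1, of SLC2A1 and LDHA, and of PFKP and HK2 overlapped between libraries, and the other neighbours in this order did not, although LDHB and PKM came close within a library. The coefficient of variation over the libraries was below the median of 13.8% over 11720 genes of at least 1 FPKM for 5 members (LDHB, PKM, ALDOA, SLC2A3 and HK1) and above it for the other 5. No test was made between the pESC libraries, since each name stands for 1 library, and their depth is unknown because the values are scaled.

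**Figure D1:**
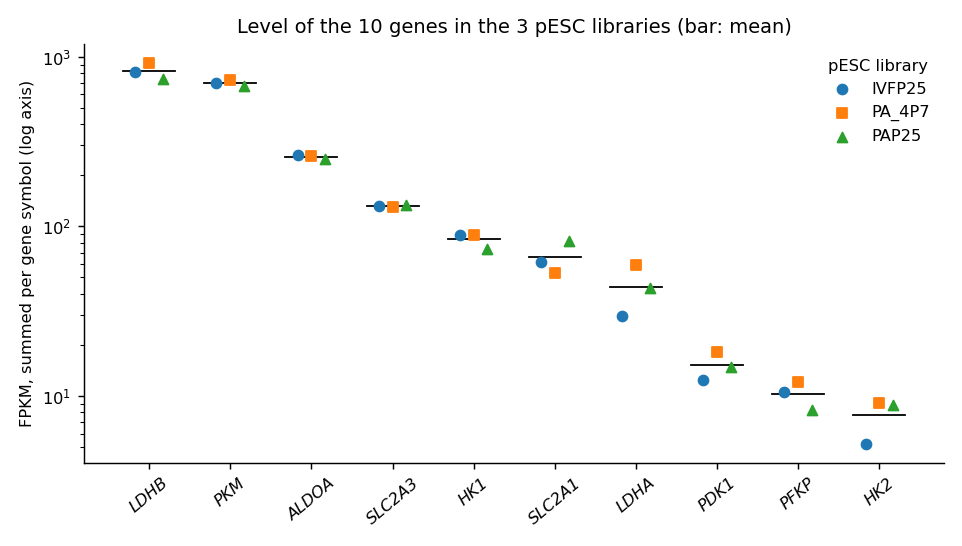
FPKM of the 10 genes (y axis, log scale) in the 3 pESC libraries, with 1 point per library and a bar at the mean. LDHB and PKM sit at 673 FPKM or more in every library, PFKP and HK2 below 12.2, and LDHA spreads from 29.5 to 59.5.

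Within the paralogous pairs, 1 form led in every pESC library. LDHB was 27.7, 15.4 and 16.9 times LDHA in IVFP25, PA_4P7 and PAP25, HK1 was 16.9, 9.87 and 8.28 times HK2, and SLC2A1 was 0.469, 0.404 and 0.617 times SLC2A3. The LDHB symbol covers the gene on chromosome 5 (51810932 to 51831218) and a partial single-exon copy on chromosome 2 (12988754 to 12990033) that is 99.1% identical over 93.6% of the transcript, so the split of reads between them is uncertain. The single-exon copy held 51.9 FPKM in PA_4P7, against 3.47 in IVFP25 and 3.46 in PAP25, a small part of the LDHB sum in each. SLC2A1 was highest in PAP25, and this library also held the most of 6 of 7 hypoblast genes and of 6 of 8 trophectoderm genes. Of the hypoblast genes SOX17 stood there at 26.1 FPKM against 1.73 and 1.82, FOXA2 at 81.8 against 13.2 and 15.5, and APOA1 at 350 against 50.1 and 46.8 in IVFP25 and PA_4P7. Of the trophectoderm genes KRT8 stood at 1448 FPKM against 972 and 732, and GATA3 at 3.97 against 0.339 and 0.122. GATA2, CDX2, ELF5 and HAND1 were at 1.04 FPKM or less even in PAP25. KRT18 was at 377 FPKM there against 398 in IVFP25, and TFAP2C at 3.61 against 8.20 in PA_4P7. The share of all genes that were highest in PAP25 was not counted. The part of these hypoblast and trophectoderm genes in the SLC2A1 level was not tested. In bulk RNA more cells of a type and more RNA per cell cannot be told apart. Of the mesenchyme genes, COL1A1 stood at 4.47, 3.60 and 3.92 FPKM and COL1A2 at 1.37, 1.93 and 2.31, with the others of the list below 1, and a share of RNA from the feeder cells was not tested.

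In the blastoids, barcodes with at least 11223 UMIs (unique molecules) in library 1 and 9805 in library 2 were taken as cells, which gave 7369 and 8175 cells with a median of 29728 and 27588 UMIs. They share 9 barcodes (0.122% and 0.110% of the cells). A cell passed a gate with at least 5 UMIs of the gate gene and a level of at least 3 times that gene's mean over all cells, and cells that passed several gates (258 and 216) were left out. The POU5F1 gate held 468 and 825 cells in libraries 1 and 2, the CRABP1 gate 253 and 403, the GABRP gate 667 and 673, the TP63 gate 778 and 643 and the COL3A1 gate 578 and 443. The remaining 4367 and 4972 cells passed none. The gates were taken as sets of cells with a high level of 1 gene, not as cell types. DNMT3B (306 UMIs per 1000000 UMIs, CPM, as the mean of both libraries), NANOG, UTF1 and TDGF1 were highest in the POU5F1 gate. SOX2 (98.5 CPM against 79.8 in the CRABP1 gate) and LIN28A (23.1 against 19.0 in the TP63 gate) led less, and L1TD1 was higher in the CRABP1 gate. Anterior neural genes went with CRABP1 (SIX3 at 252 CPM, with SOX10 of the neural crest at 15.1). TAC3 (343 CPM) and KRT8 (9281 CPM) went with GABRP, as did KRT18, GATA3 and ELF5. Of the other trophectoderm genes, HAND1 (676 CPM) and CDX2 (5.44) were highest in the COL3A1 gate. GATA2 (68.9) was highest in the TP63 gate and TFAP2C (59.5) in the POU5F1 gate. COL1A2 (1153 CPM) and TWIST1 (593 CPM) went with COL3A1. The TP63 gate was not set apart by the other surface ectoderm genes. TFAP2A was at 381 CPM there and at 361 in the GABRP gate, DSP at 180 against 272 in the COL3A1 gate, GRHL3 at 6.31 against 54.8 in the CRABP1 gate, and KRT5 and KRT15, keratins of stratified epithelium, were below 1 CPM. UMIs of the 2 libraries were summed per gate, which gave 10 sums, and each gate was tested against the mean of the other 4 gates with edgeR's quasi-likelihood test, adjusted over 17413 genes. With n = 2, p-values measure only the spread between the libraries, and nothing in the labels says that they came from separate cultures.

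SLC2A1 was the member that differed most between gates. It stood at 784 CPM in library 1 and 867 in library 2 in the GABRP gate, 411 and 450 in the TP63 gate, 212 and 196 in the POU5F1 gate, 186 and 194 in the CRABP1 gate and 149 and 133 in the COL3A1 gate. No gates overlapped, although POU5F1 and CRABP1 were close. The GABRP gate was 4.49-fold above the others, a log2 difference of 2.17 ± 0.05 (SE, adjusted p = 2.09e-12), and the TP63 gate was higher than the mean of the other gates by 0.72 ± 0.06 (adjusted p = 4.67e-07). Scaling of the sums by TMM is part of the 2.17, as it moved the median of all genes in the GABRP gate by 0.26 relative to UMI totals. Cells in no gate held 380 and 400 CPM and all cells together 393 and 402, so the level of the TP63 gate lay close to that of the cells at large, and 3 of the gates it was set against lay below them. The POU5F1 gate was lower (log2 -0.70 ± 0.06, adjusted p = 6.64e-07), as were the CRABP1 gate (-0.94 ± 0.07, adjusted p = 1.13e-07) and the COL3A1 gate (-1.25 ± 0.07, adjusted p = 4.80e-09). Between neighbours in this order, the POU5F1 and CRABP1 gates did not pass the test (log2 0.19 ± 0.08, adjusted p = 0.0608) and the other neighbours did. The log2 difference of the POU5F1 gate went from -0.36 with the gate set at 2 times the mean to -1.29 at 5 times, and that of the COL3A1 gate was -1.99 once cells with high doublet scores were removed. Empty droplets, barcodes of 10 to 100 UMIs, held SLC2A1 at 325 and 293 CPM, above the level of the POU5F1, CRABP1 and COL3A1 gates, and the part of free RNA in the sums of those gates was not tested.

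SLC2A3 varied least. Its level was 138 and 138 CPM in the POU5F1 gate, 132 and 133 in the TP63 gate, 134 and 125 in the CRABP1 gate, 125 and 126 in the GABRP gate and 109 and 115 in the COL3A1 gate, against 82.3 and 82.8 in empty droplets. The COL3A1 gate was lowest in both libraries and lower in the test (log2 -0.19 ± 0.05, adjusted p = 0.00366). The GABRP gate was called higher (0.24 ± 0.04, adjusted p = 4.24e-04) and the CRABP1 gate lower (-0.17 ± 0.05, adjusted p = 0.0112), but with UMI totals in place of TMM both signs turned, to -0.02 and 0.03, and neither passed. In the POU5F1 and TP63 gates the log2 difference was 0.07 ± 0.04 (adjusted p = 0.220) and 0.06 ± 0.04 (adjusted p = 0.305). A stretch of chromosome 17 is 91.4% identical to 52.4% of the last 500 bases of SLC2A3, where UMIs are counted. Its part in the SLC2A3 counts was not tested.

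HK1 was highest in the POU5F1 gate at 78.5 and 81.7 CPM, followed by the CRABP1 gate at 64.7 and 60.6, the COL3A1 gate at 54.0 and 50.1, the TP63 gate at 44.5 and 40.7 and the GABRP gate at 42.0 and 38.2. It was higher in the POU5F1 gate by 0.64 ± 0.06 on the log2 scale (adjusted p = 4.98e-07), lower in the TP63 gate (-0.43 ± 0.06, adjusted p = 8.60e-05) and lower in the GABRP gate (-0.27 ± 0.06, adjusted p = 0.00225). The TP63 and GABRP gates overlapped, and empty droplets held 30.5 and 24.7 CPM. Cells in no gate held 40.0 and 40.4 CPM, so the TP63 and GABRP gates lay close to the level of the cells at large.
HK2 had another order. It stood at 22.7 and 19.2 CPM in the TP63 gate, 17.0 and 14.8 in the POU5F1 gate, 11.4 and 12.0 in the GABRP gate, 12.3 and 9.67 in the COL3A1 gate and 10.8 and 8.97 in the CRABP1 gate. The TP63 gate was 1.75-fold above the others (log2 0.81 ± 0.10, adjusted p = 1.68e-05) and above the POU5F1 gate itself (POU5F1 minus TP63 -0.47, adjusted p = 0.00426). The CRABP1 gate was lower (log2 -0.76 ± 0.13, adjusted p = 4.03e-04), at a level that was near the 10.4 and 7.25 CPM of empty droplets. With the library as a block, which did not undo any call, HK2 also passed as higher in the POU5F1 gate (0.22 ± 0.10, adjusted p = 0.0703 without the block and 0.0262 with it) and as lower in the COL3A1 gate (-0.29 ± 0.12, adjusted p = 0.0563 and 0.0217).

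PFKP, which makes the committed step with the other phosphofructokinases, was a gene of the POU5F1 gate. It counted 213 and 375 UMIs there, 10.7 and 12.3 CPM, and stood at 4.33 and 4.63 CPM in the CRABP1 gate, 3.80 and 3.86 in the GABRP gate, 3.58 and 3.52 in the TP63 gate and 2.2 and 1.72 in the COL3A1 gate. The POU5F1 gate was above every other sum, 3.28-fold above the mean of the other gates (log2 1.71 ± 0.11, adjusted p = 3.99e-08). The COL3A1 gate, with 37 and 18 UMIs, was lower (log2 -1.32 ± 0.18, adjusted p = 2.93e-05). The CRABP1, GABRP and TP63 gates lay within or under the 6.10 and 3.84 CPM of empty droplets, which rest on 10 and 9 UMIs. The COL3A1 gate lay furthest under them. Empty droplets show the make-up of free RNA, not its amount in a cell. The part of free RNA in the PFKP sums of those 4 gates was not tested, and its folds between gates rest on few UMIs.
ALDOA was highest in the GABRP gate at 176 and 187 CPM, with 160 and 159 in the POU5F1 gate, 147 and 142 in the COL3A1 gate, 127 and 129 in the TP63 gate and 120 and 111 in the CRABP1 gate. It was higher in the GABRP gate (log2 0.68 ± 0.05, adjusted p = 3.20e-08) and lower in the CRABP1 gate (-0.60 ± 0.05, adjusted p = 8.58e-07) and the TP63 gate (-0.22 ± 0.05, adjusted p = 0.00194). Its difference in the GABRP gate was 0.42 with UMI totals, and in the POU5F1 gate 0.10 ± 0.05 passed with the library as a block (adjusted p = 0.0451) and not without it (0.0852). Cells in no gate held 129 and 126 CPM, close to the TP63 gate, and empty droplets held 152 and 138 CPM.

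PKM stood at 673 and 690 CPM in the POU5F1 gate and 586 and 646 in the CRABP1 gate, and at 407 and 420 in the TP63 gate, 411 and 425 in the COL3A1 gate and 310 and 335 in the GABRP gate. The first pair of gates lay above the other 3 in both libraries. PKM was higher in the POU5F1 gate (log2 0.58 ± 0.05, adjusted p = 5.13e-07) and the CRABP1 gate (0.28 ± 0.05, adjusted p = 6.99e-04), and lower in the GABRP gate (-0.43 ± 0.06, adjusted p = 1.77e-05), the TP63 gate (-0.25 ± 0.05, adjusted p = 0.00207) and the COL3A1 gate (-0.19 ± 0.05, adjusted p = 0.0118). The difference between the TP63 and COL3A1 gates did not pass (log2 -0.05 ± 0.07, adjusted p = 0.562). Empty droplets held 485 and 553 CPM.

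LDHA was highest in the COL3A1 gate, at 48.6 and 46.9 CPM. It stood at 35.5 and 31.1 CPM in the POU5F1 gate, 23.5 and 18.8 in the GABRP gate, 18.8 and 16.0 in the CRABP1 gate and 17.1 and 15.8 in the TP63 gate. The COL3A1 gate was 2.32-fold above the others (log2 1.21 ± 0.08, adjusted p = 3.00e-08) and above the POU5F1 gate itself (POU5F1 minus COL3A1 -0.62 ± 0.10, adjusted p = 1.18e-04). LDHA was also higher in the POU5F1 gate (0.43 ± 0.08, adjusted p = 3.11e-04), and lower in the CRABP1 gate (-0.86 ± 0.10, adjusted p = 1.70e-05) and the TP63 gate (-0.76 ± 0.09, adjusted p = 1.39e-05), whose levels were near the 20.7 and 17.9 CPM of empty droplets.
LDHB was highest in the POU5F1 gate, at 1756 and 1774 CPM, followed by the COL3A1 gate at 1302 and 1275, the CRABP1 gate at 1101 and 1122, the TP63 gate at 1085 and 1093 and the GABRP gate at 966 and 938. The POU5F1 gate was 1.51-fold above the others (log2 0.59 ± 0.04, adjusted p = 1.90e-08). The COL3A1 gate was higher by 0.14 ± 0.04 (adjusted p = 0.00656), and the CRABP1 gate (-0.35 ± 0.04, adjusted p = 8.14e-06), the TP63 gate (-0.21 ± 0.04, adjusted p = 6.97e-04) and the GABRP gate (-0.18 ± 0.04, adjusted p = 0.00143) were lower. The fit put the CRABP1 gate below the GABRP gate (CRABP1 minus GABRP -0.14 ± 0.05, adjusted p = 0.0244), against the order of their CPM. Cells in no gate held LDHB at 1319 and 1325 CPM, so by CPM the COL3A1 gate did not lie above the cells at large. With UMI totals in place of TMM, the LDHB difference shrank in the CRABP1 gate and grew in the GABRP gate, as given at the end. Empty droplets held 1225 and 1296 CPM, level with the COL3A1 gate and above the CRABP1, TP63 and GABRP gates, and the part of free RNA in those sums was not tested. The last 500 bases of LDHB, where UMIs are counted, are 98.6% identical to the copy on chromosome 2, so LDHB here is uncertain in the same way as in the pESCs.
PDK1, which holds back the oxidation of pyruvate, was highest in the COL3A1 gate at 17.3 and 19.1 CPM. The other gates lay between 8.60 and 12.9 CPM, and empty droplets at 7.93 and 6.83. The COL3A1 gate was 1.66-fold above the others (log2 0.73 ± 0.09, adjusted p = 1.53e-05), and the GABRP gate was lower (-0.30 ± 0.09, adjusted p = 0.0154), which DESeq2 did not call (adjusted p = 0.0879). In the CRABP1 gate the difference of -0.26 ± 0.11 passed with the library as a block (adjusted p = 0.0411) and not without it (0.0681).

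**Figure D2:**
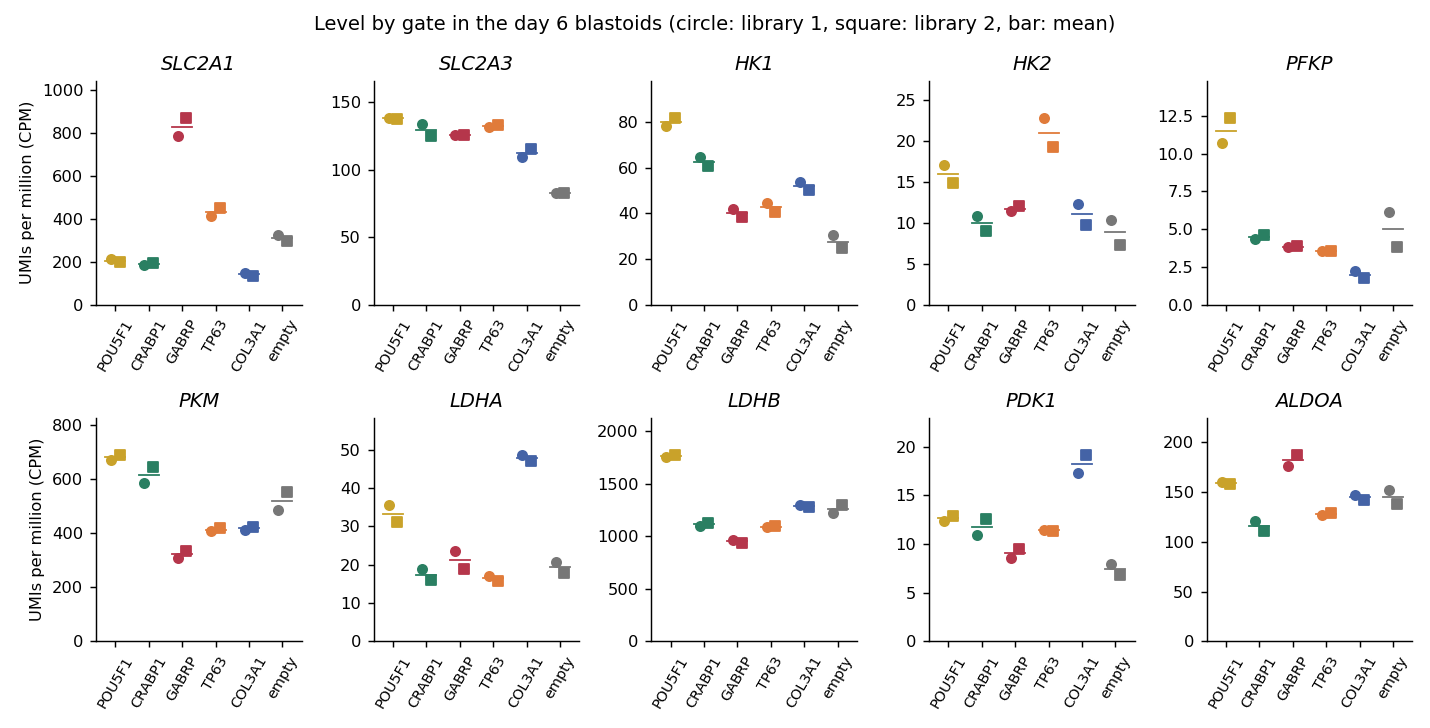
UMIs of each gene as CPM (y axes, linear from 0) in the 5 gates and in empty droplets, for library 1 (circles) and library 2 (squares), with bars at the mean. SLC2A1 reaches 784 and 867 CPM in the GABRP gate against 325 and 293 in empty droplets, PFKP, HK1, PKM and LDHB peak in the POU5F1 gate, and LDHA and PDK1 in the COL3A1 gate.

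Counted by gate, the members did not move as 1 group. In the POU5F1 gate, 5 of the 10 were higher (HK1, PFKP, PKM, LDHA and LDHB), 1 was lower (SLC2A1) and 4 were neither, where 29.7% of all genes were higher and 30.4% lower, and the median log2 difference was 0.33 against -0.03 over all genes. In the CRABP1 gate 1 member was higher (PKM) and 6 were lower, where 21.0% of all genes were higher and 21.8% lower, with a median of -0.31 against -0.01. In the TP63 gate 2 were higher (SLC2A1 and HK2) and 5 lower, against 22.6% and 22.3% of all genes, with a median of -0.22.
The GABRP gate had 3 higher members (SLC2A1, SLC2A3 and ALDOA) and 4 lower (HK1, PKM, LDHB and PDK1), against 29.9% and 28.1% of all genes. The COL3A1 gate had 3 higher (LDHA, LDHB and PDK1) and 4 lower (SLC2A1, SLC2A3, PFKP and PKM), against 25.6% and 24.0%. The shares of higher members are near the background in those 2 gates, and the medians were -0.01 and -0.10. Between pairs of gates, 8 of the 10 members passed for POU5F1 against CRABP1 (47.2% of all genes), 8 for POU5F1 against GABRP (63.2%), 8 for POU5F1 against TP63 (58.0%) and 9 for POU5F1 against COL3A1 (56.2%). All 8 were higher in the POU5F1 gate than in the CRABP1 gate. The CRABP1 gate differed from the GABRP gate in 8 members (56.5% of all genes), from the TP63 gate in 6 (43.7%) and from the COL3A1 gate in 7 (39.5%). The GABRP and TP63 gates differed in 4 members, near the share over all genes (39.0%), and the COL3A1 gate differed from GABRP in 9 (56.0%) and from TP63 in 9 (50.7%). The pairs were tested with TMM scaling only, and some directions go against the CPM. LDHB passed as higher in the GABRP gate than in the CRABP1 gate (adjusted p = 0.0244) at 952 against 1112 CPM. SLC2A3 passed as higher in the GABRP gate (126 CPM) than in the POU5F1 gate (138 CPM, adjusted p = 0.0453) and the CRABP1 gate (129 CPM, adjusted p = 3.42e-04).
The 5 comparisons share sums, so a member that is high in 1 gate is also part of what lowers it in the others. The counts by gate come from the fit without the library as a block. With the block 4 further differences passed: HK2 and ALDOA as higher in the POU5F1 gate, PDK1 as lower in the CRABP1 gate and HK2 as lower in the COL3A1 gate.
TMM scaling set the sums of the CRABP1 and GABRP gates apart from their UMI totals. The median log2 difference of all genes moved by -0.20 in the CRABP1 gate and 0.26 in the GABRP gate relative to UMI totals, and by under 0.1 in the others. With totals, all genes called in the CRABP1 gate were 6423 higher and 2132 lower, where TMM gave 3662 and 3800, those in the GABRP gate 3328 and 8062, where TMM gave 5213 and 4892, and those in the POU5F1 gate 6009 and 4429, where TMM gave 5171 and 5295. The members then were 2 higher and 5 lower in the CRABP1 gate, 2 higher and 5 lower in the GABRP gate and 8 higher and 1 lower in the POU5F1 gate.

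**Figure D3:**
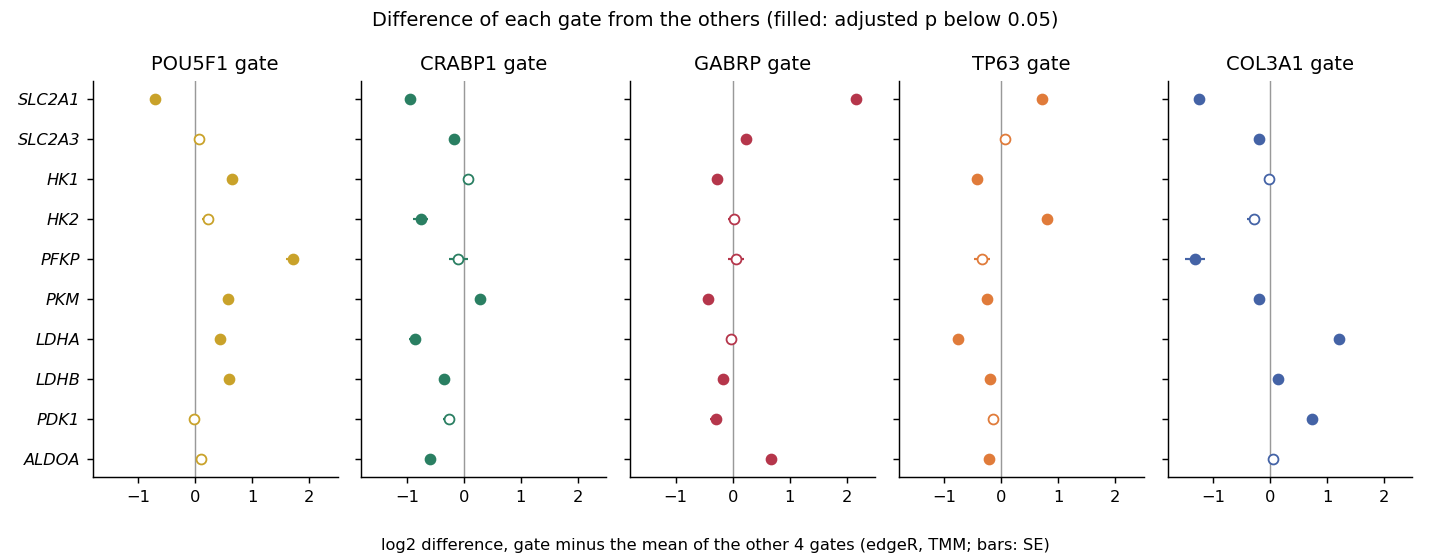
log2 difference of each gene between a gate and the mean of the other 4 gates (x axes, edgeR with TMM, bars SE), with filled points at an adjusted p below 0.05. SLC2A1 reaches 2.17 in the GABRP gate and -1.25 in the COL3A1 gate, PFKP 1.71 in the POU5F1 gate and LDHA 1.21 in the COL3A1 gate, while SLC2A3 stays within 0.24 of 0 and turns its sign in the CRABP1 and GABRP gates with UMI totals.

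Set against other genes, the size of these differences was unequal. Between its highest and its lowest gate SLC2A1 differed by 2.73 on the log2 scale (6.64-fold), which lies at percentile 94.2 of 7241 genes with a mean of at least 20 CPM over the sums. PFKP followed with 2.40 (percentile 92.0 on the same scale, although its own mean is 5.00 CPM and its lowest gate lay under the empty droplets) and LDHA with 1.64 (percentile 84.0). SLC2A3 differed by 0.34, at percentile 12.4. The other 6 members lay between 0.76 and 1.22, at percentiles from 53.6 to 75.5 on the same scale, although the means of HK2 (13.9 CPM) and PDK1 (12.6 CPM) are also under 20 CPM.

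The same form of each pair held most UMIs in every gate, while the size of its share varied between gates, which was not tested. Of the UMIs of SLC2A1 and SLC2A3 together, SLC2A1 made up 86.2% and 87.3% in the GABRP gate and 75.7% and 77.2% in the TP63 gate, but 57.7% and 53.5% in the COL3A1 gate, with the POU5F1 and CRABP1 gates between 58.1% and 60.8%. Of the hexokinase pair, HK1 made up 66.2% and 67.9% in the TP63 gate and 85.7% and 87.1% in the CRABP1 gate, with the other gates between 76.1% and 84.7%. The TP63 gate was the lowest in both libraries. LDHA was a small part of lactate dehydrogenase everywhere, but 3.60% and 3.55% in the COL3A1 gate and no more than 2.38% in any other sum. These are shares of UMIs, which are not scaled by length, so only their differences between gates are compared.

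**Figure D4:**
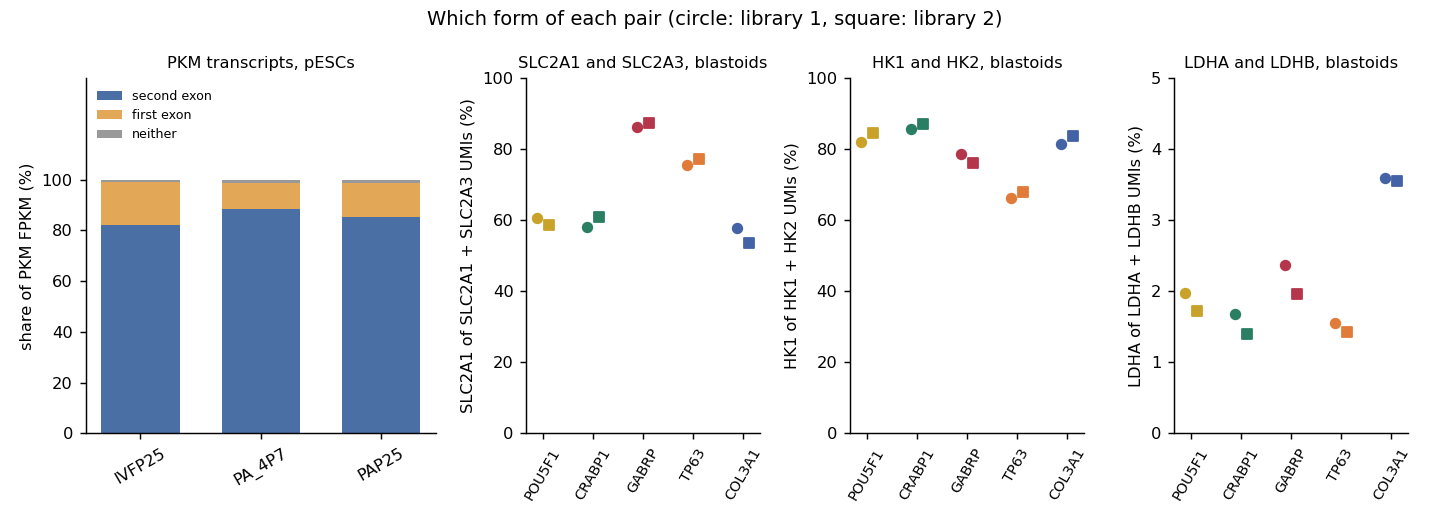
Share of PKM FPKM in transcripts with the first, the second or neither alternative exon in the 3 pESC libraries (left, stacked bars, %), and share of UMIs of 1 gene of each pair by gate in the blastoids (right, %, circles library 1, squares library 2). The second PKM exon holds 82.1% to 88.6%, SLC2A1 takes 86.2% and 87.3% of the transporter UMIs in the GABRP gate, and LDHA 3.60% and 3.55% of the lactate dehydrogenase UMIs in the COL3A1 gate.

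All cells were also binned by the level of a gate gene. The pairs of genes were chosen for their gate differences, and the upper bins hold cells of the gates themselves, so the bins describe the course of those differences and do not support them. SLC2A1 stood at 254 and 291 CPM in cells without a GABRP UMI, at 534 and 540 in cells from 1 to 3 times the mean of GABRP, and at 796 and 901 in cells over 9 times it. It climbed at every step in both libraries. Along TP63 it went from 319 and 351 CPM to 442 and 560, with no further rise above the mean of TP63 in library 1. PFKP stayed between 3.10 and 3.90 CPM in cells below the mean of POU5F1 and reached 18.7 and 22.3 CPM in cells over 9 times it, 55 and 172 cells. LDHA went from 24.1 and 21.1 CPM in cells without COL3A1 to 53.1 and 53.5 in cells over 9 times its mean.

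**Figure D5:**
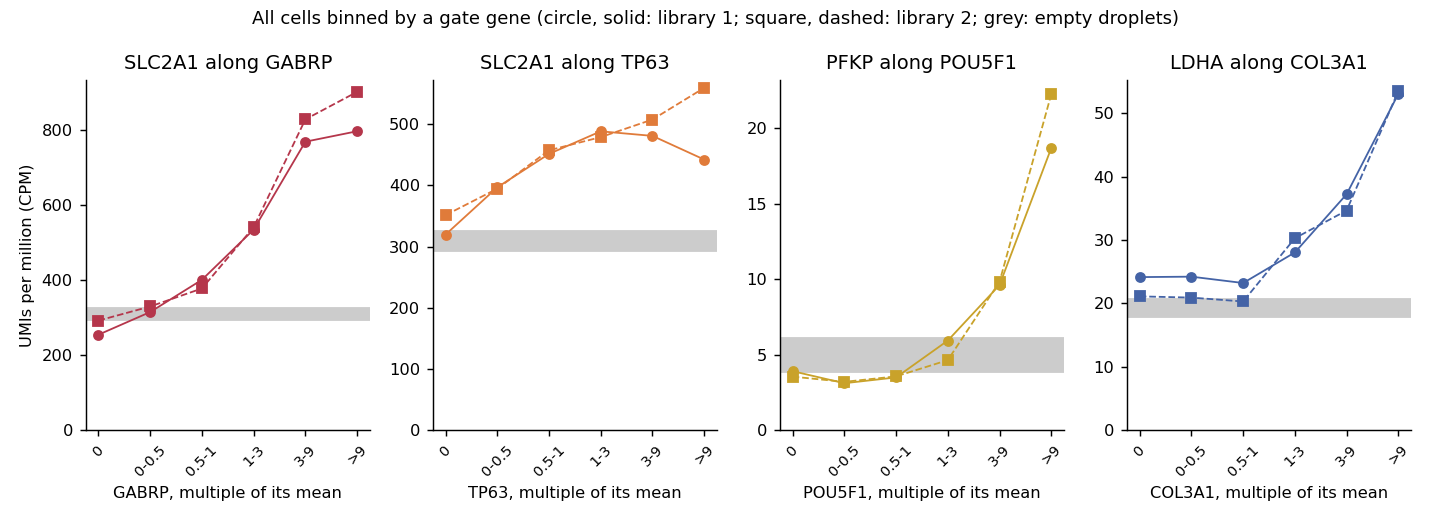
CPM of SLC2A1, PFKP and LDHA (y axes, linear from 0) in all cells binned by the level of a gate gene as a multiple of its mean (x axes), for library 1 (circles) and library 2 (squares), with the range of empty droplets in grey. SLC2A1 climbs with GABRP from 254 and 291 to 796 and 901 CPM, and PFKP lies above the range of empty droplets only in the bins above 3 times the mean of POU5F1.

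Shares of cells with at least 1 UMI followed depth as well as level, so cells were also thinned to 9000 UMIs. SLC2A1 was found in 99.0% and 98.7% of thinned cells of the GABRP gate and in 47.4% and 46.7% of those of the COL3A1 gate (100% and 100%, and 75.3% and 72.7%, before thinning). PFKP was found in 7.05% and 8.12% of thinned cells of the POU5F1 gate, and in 1.13% to 4.71% in the other gates. Before thinning these were 34.0% and 31.4% against 3.84% to 11.5%, at a median of 39508.5 and 34889 UMIs per cell in the POU5F1 gate and 19978 to 27915.5 in the others. HK2 was found in 16.7% and 14.9% of thinned cells of the TP63 gate and 13.9% and 10.4% of the POU5F1 gate, and LDHA in 33.2% and 32.5% of the COL3A1 gate and 26.7% and 23.2% of the POU5F1 gate. No cell type can be taken to lack these genes, so the part of free RNA in a cell could not be measured from them. The levels in empty droplets given above show the make-up of free RNA and are no floor for the levels in cells.

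Other measures moved with the gates. The 6 genes of the cell cycle list summed to 872 and 914 CPM in the POU5F1 gate, 754 and 720 in the CRABP1 gate, 712 and 747 in the COL3A1 gate, 463 and 454 in the TP63 gate and 271 and 329 in the GABRP gate. The cell cycle list was lowest in the gate where SLC2A1 was highest, and its part in the differences of the members was not tested. High doublet scores marked 14.0% and 10.8% of the cells of the COL3A1 gate and 2.70% to 9.18% in the others, and genes of dissociation stress summed to 821 and 709 CPM there against 290 to 621 elsewhere. LDHA and PDK1 in the COL3A1 gate kept their calls without those doublet scores, and the part of dissociation was not tested. The 6 cardiac genes summed to 350 and 304 CPM in the COL3A1 gate and to 14.5 to 121 in the other gates, which differed widely between the libraries (121 and 14.5 in the CRABP1 gate, 116 and 29.1 in the TP63 gate, 105 and 46.0 in the GABRP gate). The 7 hypoblast genes summed to 362 and 375 CPM in the COL3A1 gate and to 61.9 to 346 in the others, where APOA1 alone stood at 329 CPM in the TP63 gate and 249 in the GABRP gate, near the 310 of empty droplets. In the COL3A1 gate GATA6 stood at 189 CPM, GATA4 at 71.8, MYL7 at 189 and HAND1 of the trophectoderm list at 676, while SOX17, FOXA2 and TTR were below 1 CPM. Their part in the LDHA and PDK1 levels of that gate was not tested.

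Other genes of the pathway were taken from lists by name, and no test of a list as a whole was made. Of 17 tested glycolytic enzymes outside the 10, 11 were higher and 2 lower in the POU5F1 gate (29.7% and 30.4% of all genes), and 7 were higher and 2 lower in the CRABP1 gate (21.0% and 21.8%). In the TP63 gate 1 was higher and 10 lower (22.6% and 22.3%), and in the GABRP gate 3 were higher and 7 lower (29.9% and 28.1%). Their median log2 difference was 0.24 in the POU5F1 gate, 0.20 in the CRABP1 gate, -0.26 in the TP63 gate, 0.02 in the GABRP gate and -0.09 in the COL3A1 gate, where 4 were higher and 4 lower (25.6% and 24.0%). ENO3, the muscle enolase, rose in the COL3A1 gate to 15.5 and 16.7 CPM (log2 1.84, adjusted p = 1.35e-08). LDHC, the testis lactate dehydrogenase, passed in the POU5F1 gate at 2.71 and 1.91 CPM (log2 2.12, adjusted p = 3.28e-05). HKDC1 is among the genes counted as higher in the CRABP1 gate and as lower in the TP63 gate, but its 1.49 and 1.13 CPM in the CRABP1 gate stood against 0.452 or less in every other sum, so it passed the filter on low counts through that gate alone and its calls say nothing.
Among 10 tested transporters of glucose and lactate, 5 were higher and 4 lower in the GABRP gate (29.9% and 28.1% of all genes). SLC2A5, a fructose transporter, was at 36.8 and 38.8 CPM there (log2 2.25, adjusted p = 1.92e-09) and SLC2A12, another member of the glucose transporter family, at 17.1 and 14.9 (2.27, adjusted p = 1.51e-08), so both shared the gate of SLC2A1. SLC2A6 was lower in the TP63 gate (-2.27) at a level under 0.3 CPM.
Of 10 regulators of glycolytic flux, EPAS1, a hypoxia-inducible factor known from endothelium and trophoblast, was at 227 and 218 CPM in the GABRP gate (log2 3.62, adjusted p = 5.77e-14). MYC, a transcription factor of growth, was at 41.2 and 50.2 CPM in the COL3A1 gate (2.07, adjusted p = 1.34e-09), and TXNIP, a brake on glucose uptake, at 51.7 and 64.9 (1.54, adjusted p = 3.11e-08). The list had 4 higher and 3 lower genes in the GABRP gate (29.9% and 28.1% of all genes) and 3 and 3 in the COL3A1 gate (25.6% and 24.0%), near the background.
For the entry of pyruvate into mitochondria and its oxidation there, 6 of 12 genes were higher and 2 lower in the POU5F1 gate (29.7% and 30.4% of all genes), and 0 were higher and 5 lower in the COL3A1 gate (25.6% and 24.0%). PDK4, a kinase of the same family as PDK1, was at 3.81 and 3.45 CPM in the POU5F1 gate (log2 -2.55, adjusted p = 2.26e-10), PDK2 was lower there too (-0.56), and MPC2, a subunit of the pyruvate carrier, was lower in the COL3A1 gate (-0.90, adjusted p = 2.97e-08). The COL3A1 gate had a higher PDK1 beside a lower MPC2.
Of 7 pentose phosphate enzymes, 4 were higher and 0 lower in the POU5F1 gate (29.7% and 30.4% of all genes), where RPIA led (0.57), and 1 was higher and 4 lower in the CRABP1 gate (21.0% and 21.8%), where TKT was lower (log2 -0.63, adjusted p = 7.04e-07).
Among 10 genes of gluconeogenesis and glycogen, FBP1, which runs the phosphofructokinase step backwards, was at 18.4 and 17.2 CPM in the POU5F1 gate and at 1.60 or less in every other (log2 3.95, adjusted p = 2.27e-11), so FBP1 and PFKP were both highest there. PCK2 was higher in that gate (1.09, adjusted p = 4.49e-05) and GBE1, the glycogen branching enzyme, lower (-0.89, adjusted p = 2.36e-07).
Of 15 genes induced by low oxygen and outside glycolysis, 4 were higher and 9 lower in the POU5F1 gate (29.7% and 30.4% of all genes). EGLN3, a sensor of oxygen, was at 77.4 and 78.8 CPM there and at 14.6 or less elsewhere (log2 3.01, adjusted p = 3.61e-12). The related EGLN1 was higher in the GABRP gate (1.74, adjusted p = 2.20e-11), as was ADM (1.53, adjusted p = 1.14e-09), a vasodilator peptide.

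In the pESCs, 14 of the 18 other glycolytic enzymes and 8 of 11 transporters were at 1 FPKM or more. EPAS1, high in the GABRP gate of the blastoids, was at 0.125, 0.138 and 1.10 FPKM, and EGLN3 at 64.2, 75.6 and 47.2. FPKM of pESCs and CPM of blastoids come from different assays and were not compared as levels.

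The genes whose pattern over the 10 sums was most like that of each member were taken by the Pearson correlation of log2 CPM among about 7240 genes with a mean of at least 20 CPM. These points share gates and libraries, so the values are a description. For SLC2A1 they were LOC100624700, MFSD4B and SCARB2 (0.996 to 0.995), for SLC2A3 C7H6orf62, CYSTM1 and RBM47, for HK1 DIABLO, POLR2E and LOC100518575, and for HK2 COMMD1, ANKRD42 and HNRNPA3. PFKP was most like MTCH2, PDGFC and MAGOH, ALDOA like RABIF, CAPG and PCBP1, and PKM like USP44, ISG20L2 and SALL2. LDHA was most like RBM4, MLEC and LGALS1, LDHB like CCDC34, NUP188 and NPM1, and PDK1 like FKBP11, PYCR1 and TMEM88. The coefficients of all 30 lay between 0.938 and 0.996.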

How the data were processed

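For bulk RNA-seq of pESCs, the authors trimmed reads with Trim Galore 0.6.4, mapped them to susScr11 with HISAT2 2.2.1 and computed FPKM with StringTie 2.2.1 (versions from the submitters' processing notes), and the deposited FPKM per RefSeq transcript were summed here per gene symbol, 29862 of 29886 symbols being in the RefSeq table of Sscrofa11.1. For scRNA-seq of blastoids, the authors counted UMIs with Cell Ranger 7.1.0, and deposited the UMI counts without normalization or cell calling (289452283 and 302211552 UMIs, of which 87.8% and 87.7% in the cells used here).

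Gates are given with the results. UMIs were summed per gate and library, filtered with filterByExpr, scaled by TMM and tested with edgeR 4.0.16 in R 4.3.3, with Benjamini-Hochberg adjustment over all genes. CPM are UMIs of a gene per 1000000 UMIs of its sum. DESeq2 1.42.0 was an alternative. On simulated counts for the POU5F1 gate (16831 genes), 97 of 98 genes changed by log2 2 and 87 of 98 changed by 1 were called, and 12 of 16635 unchanged genes. The simulation gave all genes 1 common spread, had no library effect and left most genes equal between gates. Its share of false calls thus does not carry over to the real sums. Cells of every gate went through 1 preparation per library, and the deviations of the sums from their gate means correlated at 0.121 to 0.449 across 7241 genes in all 10 pairs of gates, so the library pairs them and was a block in an alternative. Scrublet in scanpy 1.11.5 marked 1 and 0 doublets by its own threshold, which is too few to have worked. Doublets were therefore kept, and the 434 and 535 cells with the highest scores were removed in an alternative. Other alternatives were gates at 2 and 5 times the mean, cells of several gates assigned, cells of high mitochondrial share removed (over the median plus 5 median absolute deviations), all genes kept, thinning to 9000 UMIs and 1 library left out. UMI totals in place of TMM were added after seeing the data. Copies of the transcripts were sought with minimap2 2.31.

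The 10 members were named in every comparison. From each pathway list up to 3 called genes with the largest log2 difference were named, except 1 result that is not reported here, and for each member the 3 genes with the highest correlation. Members, lists and gates were chosen with earlier results of these data known. Protein sequences were not used here.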

Additional observations from a re-analysis of the deposited data

How the results depend on the processing

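Of 50 member differences (10 genes in 5 gates), 34 passed at an adjusted p below 0.05 in edgeR, and 31 of these kept their direction and call under every alternative with a test. With UMI totals in place of TMM, SLC2A3 turned from -0.17 to 0.028 (log2) in the CRABP1 gate and from 0.24 to -0.0213 in the GABRP gate, and 6 differences were newly called. The same setting moved PKM (0.28 to 0.48) and LDHB (-0.35 to -0.16) in the CRABP1 gate, and HK1 (-0.27 to -0.53), PKM (-0.43 to -0.69), LDHB (-0.18 to -0.44), PDK1 (-0.30 to -0.56) and ALDOA (0.68 to 0.42) in the GABRP gate. PDK1 in the GABRP gate was lost with DESeq2 (adjusted p = 0.0879) and went to -0.69 with cells thinned to 9000 UMIs, and SLC2A3 there was lost with the gate at 5 times the mean (adjusted p = 0.156). SLC2A1 in the POU5F1 gate was -0.44 after thinning, and ALDOA in the TP63 gate -0.38 with the gate at 5 times the mean. HK2 in the COL3A1 gate passed with doublets removed (-0.45, adjusted p = 0.0199). The cause of these shifts was not tested. With the library as a replicate block no call was lost and 4 were gained, such as HK2 in the POU5F1 gate (0.23, adjusted p = 0.0262). With 1 library left out there is no test. None of the 34 called differences then turned its sign, and 12 of 50 values moved by more than their SE. Turns of sign among the differences that were not called were not counted. Members called per gate stayed between 6 and 9 in the POU5F1 gate, 7 and 8 in the CRABP1, TP63 and COL3A1 gates, and 6 and 7 in the GABRP gate. In the pESCs, the highest single transcript in place of the sum put HK1 (83.8 FPKM) above SLC2A3 (73.7), and every other setting kept the order of all 10. Depth limits PFKP most, with 18 to 87 UMIs per sum outside the POU5F1 gate.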
